A study of Mus musculus with 6 samples.

Results

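Collagens, laminins, matrix metalloproteinases (MMPs), tissue inhibitors of metalloproteinases (TIMPs) and ADAMTS proteases were examined in mouse liver tumors with and without Nr2e3. The genes were taken from the count table by symbol, with Mmp8 and Mmp9 left out, and 63 of 100 matching genes had at least 10 raw counts on average over 6 libraries, out of 24063 genes in the table. They comprised 26 of 44 collagen genes, all 11 laminin chains, 9 of 21 MMPs, 3 of 4 TIMPs and 13 of 19 ADAMTS proteases. The remaining gene, Col4a3bp, matched by symbol only and encodes a ceramide transfer protein that is no part of the matrix, so it was counted among the 63 genes and in no family. All 63 were among the 13572 genes that were tested. Of the 37 matching genes below the minimum, 3 had no count in any library. Just inside the minimum were Adamts3 at a mean of 12.33 counts and Adamts12 at 13.83, and just outside were Col6a5 at 9.333 and Mmp17 at 9.167. Timp1 was the exception among the 63, as it reached the minimum only through the Nr2e3-/- libraries, with a mean of 6.67 counts in WT and 63.7 in Nr2e3-/- tumors.

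RNA-seq libraries came from liver tumors of 3 WT (NR2E3+/+) and 3 Nr2e3-/- male C57BL/6 mice, 1 library per mouse, to ask what the loss of this orphan nuclear receptor changes in tumors of the same origin. Every mouse in both groups had received diethylnitrosamine (DEN), which hepatocytes turn into a DNA-damaging agent, by intraperitoneal injection of 25 mg per kg at 15 days of age, and tissue was taken at the 24-week time point. No library without DEN was used here, and how the null allele was made is not given in the sources used here. Each library is a piece of tumor with all its cell types.

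Fibrils of collagens I, III and V with the beaded filaments of collagen VI fill the interstitial space and accumulate as scar, mostly made by stellate cells and their myofibroblast descendants. Basement membranes are sheets in which a collagen IV network is joined to a laminin network, the latter assembled from an alpha, a beta and a gamma chain. MMPs and ADAMTS enzymes cut these proteins or trim their precursors, and TIMPs bind and block MMPs.

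Total counts lay between 15376261 and 28690279 per library, with the lowest total in Nr2e3-/- replicate 1. Nr2e3 itself had 0 counts in all 6 libraries, which cannot check the genotypes. This allows at most 0.105 to 0.195 CPM (counts per 1000000 counts) per library, taken from total counts without TMM factors. All other CPM are TMM-normalized. Hepatocyte markers summed to between 119000 and 161000 CPM in every library, as the liver label requires, and pancreas markers to at most 0.115 CPM. Nr2e3-/- replicate 1 stood nearest to WT. It had 38.1% of the 63 genes inside the range of the 3 WT libraries, against 15.9% in each of the other Nr2e3-/- libraries. Over all genes tested the shares inside the WT range were 34.3%, 22.6% and 22.9% for replicates 1, 2 and 3. For the named genes whose call changed without this library, the value without it is given as well. This library was singled out from these same values, and without it 21.8% of all genes had an adjusted p under 0.05 in edgeR. Without Nr2e3-/- replicate 2 or 3, 0 of the 63 genes did, so the values without replicate 1 are descriptions.

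No collagen, laminin, MMP, TIMP or ADAMTS gene passed an adjusted p of 0.05 in edgeR's quasi-likelihood test with Benjamini-Hochberg adjustment over all genes tested, where 0.0958% of all genes did. The smallest adjusted p was 0.0930, for Col5a3. At an unadjusted p under 0.05, 5 of 63 were higher in Nr2e3-/- tumors (7.94%, against 11.8% of all genes) and 10 were lower (15.9%, against 9.72%). Counted by the values alone, 6 had all 3 Nr2e3-/- libraries above all 3 WT libraries (9.52%, against 13.9%) and 9 had all 3 below (14.3%, against 12.9%), while 48 overlapped. Log2 fold changes of Nr2e3-/- over WT were below 0 for 45 of the 63 (71.4%, against 49.2% of all genes), with a median of -0.42 against 0.01 over all genes. DESeq2 gave 7 genes an adjusted p under 0.05 (8% of all genes), limma-voom with sample quality weights gave 21 (17.4% of all genes), and edgeR without Nr2e3-/- replicate 1 gave 25 (21.8% of all genes). DESeq2 called Col12a1, Col4a1 and Timp1 higher and Col4a5, Col5a3, Lamb2 and Lamc3 lower, and Col12a1, Timp1, Col4a5, Col5a3 and Lamb2 were called in all 3 of these fits. These 3 were the only alternatives with any call among the 63 genes, so the shared calls are a description. Timp1 was among the 63 only through its Nr2e3-/- counts. Of the 25, 20 were lower (31.7% of the 63, against 9.65% of all genes) and 5 were higher (7.94%, against 12.2%).

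**Figure D1:**
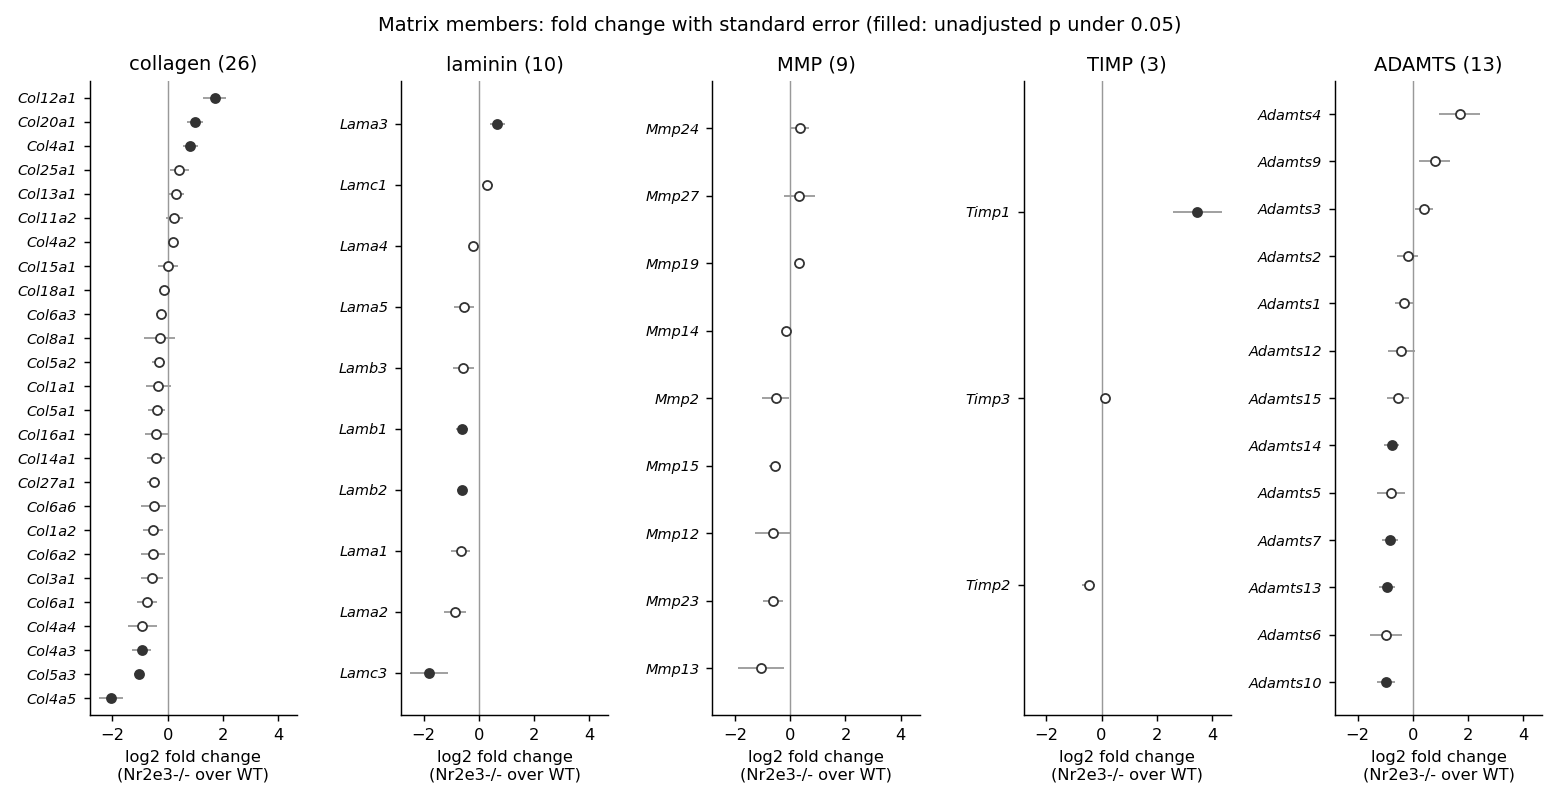
Log2 fold change of Nr2e3-/- over WT tumors (horizontal axis) for 61 of the 62 matrix genes, in a panel for each family, with bars for the standard error and filled points for an unadjusted p under 0.05. Most collagens, laminins and ADAMTS proteases lie left of 0, and Timp1 lies farthest to the right at 3.47.

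Family medians are given as descriptions, and the SDs of the library medians within a group were 0.389 for collagens, 0.368 for laminins, 0.876 for MMPs, 0.33 for TIMPs and 0.099 for ADAMTS proteases on the log2 scale, so that the medians of collagens, laminins and MMPs lay within this spread of each other. For collagens the median log2 fold change was -0.36, with 8 above 0 and 18 below, and laminins had -0.60, with 2 above and 9 below. MMPs had -0.52, with 3 above and 6 below, and ADAMTS proteases had -0.54, with 3 above and 10 below. The 3 TIMPs had 0.12. This turned to -0.19 when at least 10 counts were required in every library, and to -0.17 at a mean of at least 50 counts. Both settings remove Timp1. The MMP median was -0.11 without WT replicate 2, and the collagen median -0.12 without Nr2e3-/- replicate 3. The medians of the families other than TIMPs stayed below 0 under every normalization, filter, tool and left-out library that was tried. None of the 9 MMPs among the 63 genes had an unadjusted p under 0.05 in either direction. Among the other families 6 collagens, 4 laminins, 1 TIMP and 4 ADAMTS proteases had one, as did 21.5% of all genes. Summed levels of each family overlapped between the groups. The collagen sum was 1220, 1270 and 1290 CPM in WT and 1380, 1150 and 956 CPM in Nr2e3-/- tumors, and a single gene, Col18a1, made up most of it.

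The chains of collagen IV differed in direction. The ubiquitous network is made of alpha 1 and alpha 2 chains, and a second network of alpha 3, alpha 4 and alpha 5 chains is known from kidney and lung. Their genes lie head to head in pairs. Col4a1 (chr8:11198423-11312826, minus strand) and Col4a2 (chr8:11312805-11449287, plus strand) share 22 bases at their starts in the GRCm38 annotation, and Col4a4 (chr1:82448423-82586849, minus) and Col4a3 (chr1:82586921-82722059, plus) are 71 bases apart. Col4a5 (chrX:141475385-141689234, plus) starts 1308 bases from Col4a6. The shared or facing stretches are shown because the chains of a pair start there, and the stretch before Col4a5 because this chain had the lowest fold change. All are from RefSeq on GRCm38.p6, 5′ to 3′ on the strand named, and capitals mark a GC box (GGGCGG) or a CCAAT box (CCAAT), each searched on both strands with no overlap between them.
Col4a1 and Col4a2 shared start, chr8:11312805-11312826, plus strand: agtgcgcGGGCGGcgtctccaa
Between Col4a4 and Col4a3, chr1:82586850-82586920, minus strand: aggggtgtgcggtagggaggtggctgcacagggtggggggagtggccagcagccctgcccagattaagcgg
Before Col4a5, chrX:141475169-141475384, plus strand: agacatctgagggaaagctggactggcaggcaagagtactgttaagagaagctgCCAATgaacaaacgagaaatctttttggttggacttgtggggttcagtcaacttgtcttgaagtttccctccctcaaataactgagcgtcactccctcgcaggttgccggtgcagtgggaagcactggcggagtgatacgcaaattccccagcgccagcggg
The 22 shared bases hold 1 GC box, as do 7.19% of 32851 stretches of that length next to gene starts. The 71 bases between Col4a4 and Col4a3 hold neither motif, while 20.7% of stretches of that length hold a GC box. The stretch before Col4a5 holds 1 CCAAT box, as do 30.8% of stretches of 216 bases. A TATA box (TATAAA) and an AP-1 site (TGANTCA), searched in the same way, were not matched in any of the 3.

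Col4a1 was at 79.7, 86.6 and 57.8 CPM in WT and at 93.3, 188 and 115 CPM in Nr2e3-/- tumors. Every Nr2e3-/- library was above every WT library, with replicate 2 the highest, and the means were 74.7 ± 15 and 132 ± 49.4 CPM (SD, n = 3 each). The log2 fold change was 0.82 (SE 0.28, adjusted p = 0.168), and 1.03 with an adjusted p of 0.0318 without Nr2e3-/- replicate 1. Without replicate 2, Col4a1 had 0.48 (adjusted p = 0.254). Its partner Col4a2 overlapped between the groups, at 55.3, 56.8 and 46.0 CPM in WT and 60.6, 71.0 and 47.8 CPM in Nr2e3-/- tumors, with a log2 fold change of 0.18 (SE 0.17). The ratio of Col4a1 to Col4a2 in CPM was between 1.26 and 1.52 in WT, and 1.54, 2.64 and 2.40 in Nr2e3-/- replicates 1, 2 and 3. This ratio was examined after the values were seen and is given without a test.

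The tested chains of the other network had log2 fold changes below 0. Col4a3 was at 22.1, 29.3 and 16.9 CPM in WT and at 16.2, 13 and 6.38 CPM in Nr2e3-/- tumors, so that the groups just failed to overlap. Col4a3 had a log2 fold change of -0.94 (SE 0.35, adjusted p = 0.188). Col4a4 was at 3.76, 6.09 and 3.23 CPM in WT and at 4.04, 2.15 and 0.865 CPM in Nr2e3-/- tumors, where replicate 1 lay inside the WT range. Here the log2 fold change was -0.91 (SE 0.51, adjusted p = 0.336), close to that of the gene it faces. Col4a5, the gene mutated in X-linked Alport syndrome, had the lowest log2 fold change of the 63 genes. It was at 4.88, 3.59 and 4.89 CPM in WT and at 1.99, 0.817 and 0.541 CPM in Nr2e3-/- tumors, with all 3 Nr2e3-/- libraries below WT. The log2 fold change was -2.04 (SE 0.44, adjusted p = 0.0999), a 4.11-fold lower level, and -2.67 with an adjusted p of 0.00396 without Nr2e3-/- replicate 1. In raw counts, Col4a5 had 127, 106 and 141 in WT and 30, 22 and 10 in Nr2e3-/- libraries. Relative to Col4a1 in the same library, Col4a5 in CPM stood at 0.0414 to 0.0845 in WT and at 0.0213, 0.00436 and 0.00472 in Nr2e3-/- replicates 1, 2 and 3. This ratio sets a chain with lower values against one with higher values. It was examined after the values were seen and was not tested. Col4a6, the partner that faces Col4a5, was below the count minimum, at a mean of 7.667 counts. Col4a3 shares 563 exon bases with a noncoding gene on the opposite strand, and as the strand setting of the counting is not given in the sources used here, reads from such pairs cannot be told apart.

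**Figure D2:**
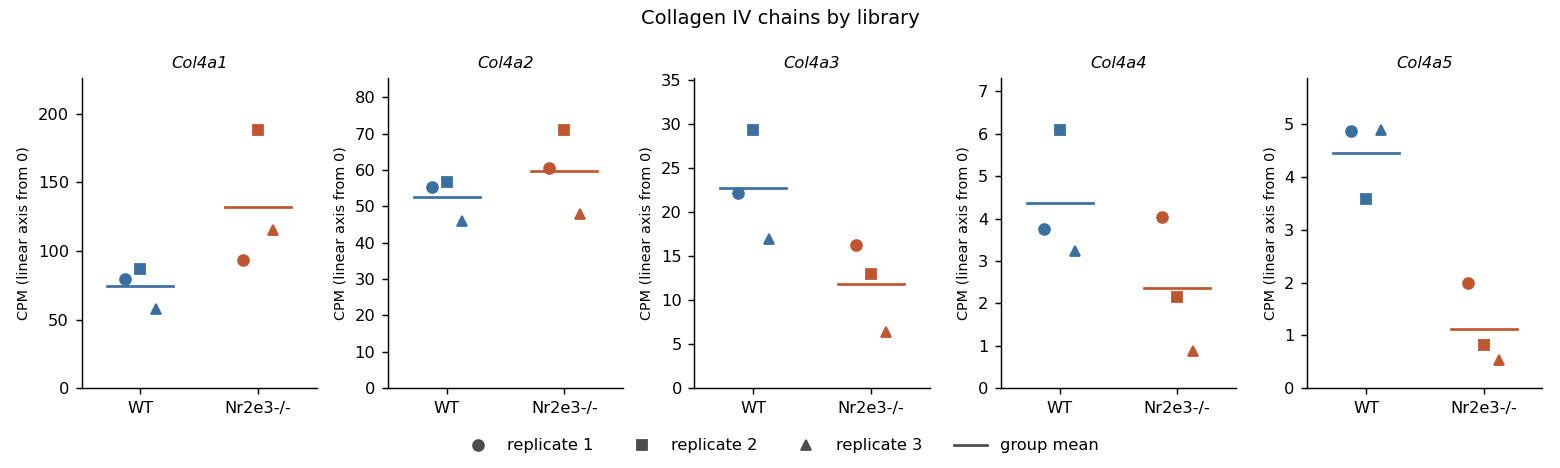
Levels of the 5 collagen IV chains (CPM, linear axes from 0) in each WT and Nr2e3-/- library, with a symbol for each replicate number and lines for group means. Col4a1 lies above WT in all 3 Nr2e3-/- libraries, Col4a2 overlaps, and Col4a5 lies below WT in all 3.

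Among the fibrillar collagens, 7 of 8 had log2 fold changes below 0, with a median of -0.45. Col5a3, a chain of collagen V and a minor partner in collagen I fibrils, had the smallest p of all 63 genes. It was at 35.8, 33.7 and 38.7 CPM in WT and at 22.0, 13 and 17.7 CPM in Nr2e3-/- tumors, with a clear gap between the groups. The means were 36.0 ± 2.53 and 17.6 ± 4.55 CPM (SD, n = 3 each). The log2 fold change was -1.04 (SE 0.19, unadjusted p = 0.000961 and adjusted p = 0.093 in the edgeR fit over all genes). It was -1.23 without Nr2e3-/- replicate 1 (adjusted p = 0.00543), -0.86 without replicate 2 (adjusted p = 0.119) and -1.05 without replicate 3 (adjusted p = 0.338). The other chains of collagen V overlapped between the groups, although Col5a1 passed adjustment in the lower direction without replicate 1. Col5a1 had 7.54 to 9.29 CPM in WT and 3.95 to 10.1 CPM in Nr2e3-/- tumors, and Col5a2 had 6.87 to 8.03 and 4.06 to 7.17 CPM. Col5a3 (chr9:20770050-20815067, minus strand) is the fibrillar member whose groups did not overlap, and the 250 bases before its start (chr9:20815068-20815317, minus strand, RefSeq on GRCm38.p6) are shown with GC boxes and a CCAAT box in capitals.
Before Col5a3: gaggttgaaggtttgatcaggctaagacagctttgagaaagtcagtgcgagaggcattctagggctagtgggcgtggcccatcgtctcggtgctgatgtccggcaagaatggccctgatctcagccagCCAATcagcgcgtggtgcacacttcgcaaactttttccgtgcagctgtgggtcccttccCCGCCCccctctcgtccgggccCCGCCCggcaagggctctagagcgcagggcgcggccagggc
It holds 2 GC boxes, read on the opposite strand, and 1 CCAAT box, motifs found in 32.7% and 33.8% of stretches of 250 bases before gene starts.

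The collagens that make up scar overlapped between the groups. Col1a1, the alpha 1 chain of collagen I, was at 16.2, 9.85 and 11 CPM in WT and at 16.4, 8.91 and 4.43 CPM in Nr2e3-/- tumors. Col1a2 was at 23.3, 17.1 and 19.9 CPM in WT and at 22.8, 11 and 8.44 CPM in Nr2e3-/- tumors, and Col3a1 at 63.1, 46.2 and 43.3 against 56.7, 30.7 and 15.8 CPM. In all 3 genes Nr2e3-/- replicate 1 lay inside or just above the WT range and replicates 2 and 3 lay below it. Their log2 fold changes were -0.33 (SE 0.44), -0.53 (SE 0.35) and -0.57 (SE 0.41). Without Nr2e3-/- replicate 3, that of Col1a1 turned to 0.03, and Col1a2 had -0.26 and Col3a1 -0.22. Without Nr2e3-/- replicate 1, Col1a2 had -1.04 (adjusted p = 0.0138), Col3a1 -1.11 (adjusted p = 0.0440) and Col1a1 -0.86 (adjusted p = 0.121). In Col6a1, Col6a2 and Col6a3 of collagen VI, the beaded-filament collagen, replicate 1 was again the highest of the Nr2e3-/- libraries. In Col6a6 replicate 1 was the lowest of them, with 1.13, 2.19 and 2.05 CPM in replicates 1, 2 and 3. Col6a6 was at 2.84, 3.82 and 1.11 CPM in WT, with a log2 fold change of -0.51 (SE 0.47). Col6a1 was at 8.14, 8.29 and 9.22 CPM in WT and at 8.67, 3.27 and 3.57 CPM in Nr2e3-/- tumors, and Col6a2 at 5.07, 4.87 and 5.03 against 6.29, 2.15 and 2.05 CPM. The log2 fold changes of Col6a1, Col6a2 and Col6a3 were -0.75, -0.54 and -0.25, with adjusted p between 0.283 and 0.483. Without replicate 1, Col6a1 had an adjusted p of 0.00457, Col6a2 of 0.00743 and Col6a3 of 0.0634.

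The sum of 9 interstitial chains of collagens I, III, V, VI and XIV, a grouping made after the values were seen, was 216, 181 and 185 CPM in WT and 220, 123 and 81.3 CPM in Nr2e3-/- tumors. Col5a3 and Col6a6 were not in this sum, so the place of each library is given for these 9 chains only. The sum of 13 stellate cell markers was 424, 370 and 408 CPM in WT and 385, 255 and 249 CPM in Nr2e3-/- tumors, lower in replicates 2 and 3. Most of it came from Reln and Dcn, at 171 and 135 CPM in WT replicate 1. Reln, Dcn, Des, Colec11, Tcf21, Angptl6 and Sod3 were below WT in both of these replicates, and the other markers were not. Among the latter, Pdgfrb was above WT in every Nr2e3-/- library, and Lrat and Ngfr lay inside the WT range in replicates 2 and 3. Of the 12 stellate cell markers that were tested, none had an unadjusted p under 0.05 in the higher direction and 2 had one in the lower (all genes 9.72%), Tcf21 at -0.84 and Angptl6 at -0.81, with a median of -0.35. Lrat, the retinol-esterifying enzyme that defines these cells, had 0.02, and Pdgfrb, their growth factor receptor, had 0.15. Myofibroblast markers summed to 43.0 to 46.6 CPM in WT and 38.3 to 52.5 CPM in Nr2e3-/- tumors. Fewer cells of a type and less RNA per cell cannot be told apart in pieces of tissue, and the part of cell composition in the collagen values was not tested.

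**Figure D3:**
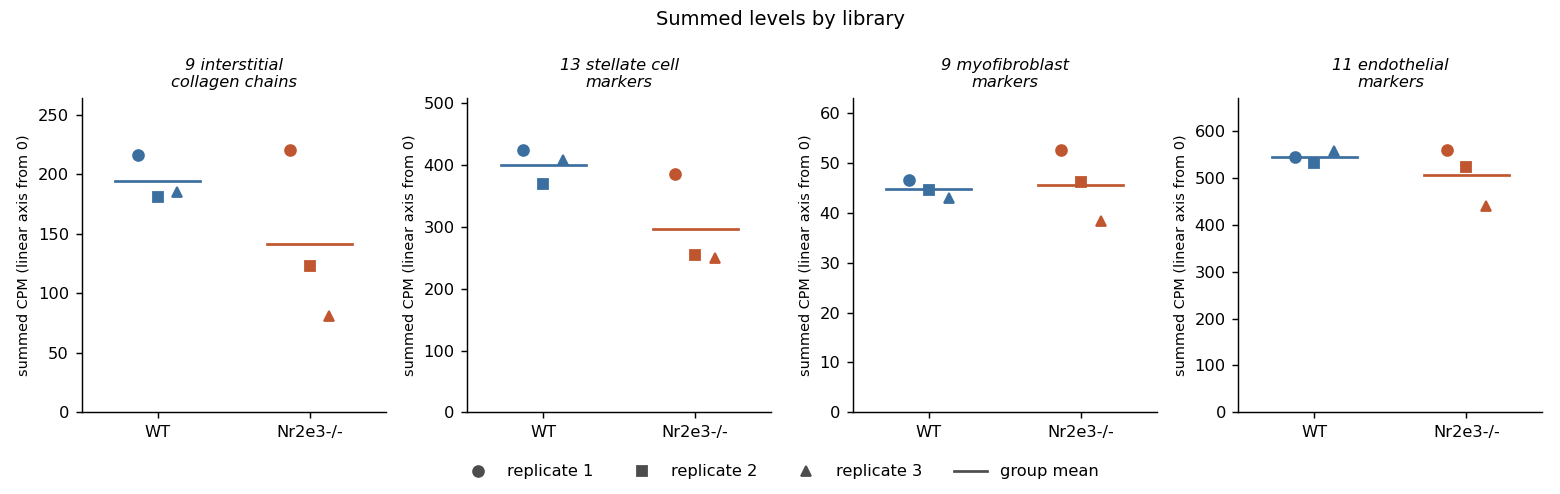
Summed CPM (linear axes from 0) of 9 interstitial collagen chains (without Col5a3 and Col6a6) and of the markers of stellate cells, myofibroblasts and endothelium in each library, with lines for group means. Nr2e3-/- replicates 2 and 3 lie below all WT libraries in the collagen and stellate cell panels, and replicate 1 lies just above them for these 9 chains and among them for the stellate cell markers.

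Of the 4 collagens that decorate fibrils (fibril-associated collagens), 2 had log2 fold changes above 0 and 2 below. Col12a1, which lies on the surface of collagen I fibrils, was at 4.88, 3.96 and 3.50 CPM in WT and at 6.55, 21.9 and 11.7 CPM in Nr2e3-/- tumors. All 3 Nr2e3-/- libraries were above WT, spread widely among themselves, and the log2 fold change was 1.71 (SE 0.42, adjusted p = 0.112). It was 1.16 without Nr2e3-/- replicate 2, and 2.04 with an adjusted p of 0.00701 without replicate 1. Col20a1, a low member at 28 to 72 raw counts, was at 1.54, 1.01 and 0.971 CPM in WT and at 1.92, 2.67 and 2.38 CPM in Nr2e3-/- tumors, with a log2 fold change of 0.99 (SE 0.28, adjusted p = 0.133), and 1.12 with an adjusted p of 0.0368 without replicate 1. Col14a1, the fibril-associated collagen with the most counts, was at 69.8, 68.8 and 66.8 CPM in WT and at 79.9, 44.3 and 29.9 CPM in Nr2e3-/- tumors. The SD of its WT libraries was 1.54 CPM, and its Nr2e3-/- libraries lay on both sides of them, with a log2 fold change of -0.42 (SE 0.32). This was -0.14 without Nr2e3-/- replicate 3, and -0.87 with an adjusted p of 0.0170 without replicate 1. Col16a1, the other one below 0, was at 3.57, 3.52 and 3.71 CPM in WT and at 4.77, 2.12 and 1.35 CPM in Nr2e3-/- tumors, with -0.41 (SE 0.42). Col16a1, named after its values were seen, passed adjustment in the lower direction without replicate 1.

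Col18a1, whose C-terminal fragment is endostatin and which hepatocytes make in quantity, had the highest level per length of the 63 genes. It was at 747, 812 and 882 CPM in WT and at 906, 666 and 639 CPM in Nr2e3-/- tumors, which overlapped, with a log2 fold change of -0.14 (SE 0.17). Per kilobase of exon it stood at 110 CPM on average over the libraries, and the next levels were 19.8 for Mmp19, 13.8 for Col4a1, 10.1 for Timp3 and 9.23 for Mmp15. Across libraries Col18a1 ranged from 91.0 to 129 CPM per kilobase and Mmp19 from 15.5 to 26.0, so these did not meet, while Col4a1 at 7.75 to 25.1 and Timp3 at 9.50 to 11.4 did not differ beyond their spread. Adamts12 had the lowest level, at 0.0487 CPM per kilobase. The forms of gene length, all exons joined or the longest transcript, gave nearly the same order of the 63 levels (Spearman rho = 0.986 across genes, a description). Of the classes with few members, the cell-surface collagen Col13a1 was at 4.92 to 5.62 CPM in WT and at 3.77, 7.72 and 7.62 CPM in Nr2e3-/- tumors, and the network collagen Col8a1 at 1.08 to 1.62 and 0.324 to 1.86 CPM. Col13a1 had a log2 fold change of 0.30, and 0.57 with an adjusted p of 0.0384 without Nr2e3-/- replicate 1. It was 0.14 without replicate 2 and 0.16 without replicate 3.

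The 3 laminin beta chains had log2 fold changes below 0. Lamb2 was at 11, 9.30 and 9.88 CPM in WT and at 7.41, 6.61 and 5.62 CPM in Nr2e3-/- tumors, with every Nr2e3-/- library below WT. The means were 10.1 ± 0.853 and 6.55 ± 0.897 CPM (SD, n = 3 each), a log2 fold change of -0.62 (SE 0.16, adjusted p = 0.123). Lamb1 was at 12.5, 10.2 and 13.1 CPM in WT and at 10.5, 6.57 and 6.60 CPM in Nr2e3-/- tumors, where replicate 1 overlapped, with -0.60 (SE 0.22, adjusted p = 0.187). Lamb3 had -0.56 (SE 0.37), with 2.25 to 4.94 CPM in WT and 1.68 to 2.56 CPM in Nr2e3-/- tumors, and -0.08 without WT replicate 2, the library at 4.94 CPM. Without Nr2e3-/- replicate 1, Lamb1 had an adjusted p of 0.0152, Lamb2 of 0.0244 and Lamb3 of 0.376.

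Lamc1, the gamma chain of most laminins and the most counted laminin gene, had no such values. It was at 29.8, 30.9 and 29.4 CPM in WT and at 27.9, 48.6 and 34.4 CPM in Nr2e3-/- tumors, with a log2 fold change of 0.30 (SE 0.20). The ratio of Lamb2 to Lamc1 in CPM was 0.369, 0.301 and 0.336 in WT and 0.266, 0.136 and 0.164 in Nr2e3-/- tumors, and that of Lamb1 to Lamc1 was 0.331 to 0.445 in WT and 0.378, 0.135 and 0.192 in Nr2e3-/- tumors. Both ratios were examined after the values were seen and were not tested. Lamc3 was at 3.72, 16.3 and 3.95 CPM in WT and at 3.18, 1.15 and 2.70 CPM in Nr2e3-/- tumors. Its groups did not overlap, but WT replicate 2 carried most of the log2 fold change of -1.80 (SE 0.68), which was -0.73 with an adjusted p of 0.490 without that library.

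Of the 5 laminin alpha chains, which carry the binding sites for cell receptors, 4 had log2 fold changes below 0. Lama3, the alpha chain of epithelial laminin, was the exception, at 4.03, 4.50 and 5.58 CPM in WT and 9.86, 7.46 and 5.25 CPM in Nr2e3-/- tumors. Here replicate 1 was the highest and replicate 3 lay inside the WT range, and the log2 fold change was 0.67 (SE 0.26, adjusted p = 0.201). Lamb3, a partner in that laminin, had a value below 0, as given above. Lama2, the alpha chain of muscle laminin, was at 3.23, 4.64 and 3.47 CPM in WT and at 3.51, 1.60 and 1.19 CPM in Nr2e3-/- tumors, with -0.87 (SE 0.40), and -1.41 with an adjusted p of 0.0164 without replicate 1. Lama1 was at 4.23 to 5.24 CPM in WT and 1.95 to 5.03 CPM in Nr2e3-/- tumors, with -0.66 (SE 0.35), and -1.14 with an adjusted p of 0.0151 without replicate 1. Lama5, the most counted alpha chain, ranged from 11 to 29 CPM in WT alone, and Lama4, a chain of vessel walls, had 9.54 to 10.8 CPM in WT and 7.68 to 9.60 CPM in Nr2e3-/- tumors, with -0.21 (SE 0.14). Endothelial markers summed to 533 to 558 CPM in WT and 559, 523 and 440 CPM in Nr2e3-/- tumors.

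The 9 MMPs among the 63 genes, which cleave collagens and many other proteins, had no unadjusted p under 0.05. Mmp11, named after its values were seen, had one but lay below the count minimum, at a mean of 7.5 counts. Its raw counts were 14, 15 and 11 in WT and 3, 1 and 1 in Nr2e3-/- libraries. The log2 fold change of Mmp11 was -2.41 (SE 0.59, unadjusted p = 0.00444 in the edgeR fit, adjusted p = 0.114). Mmp14, a membrane-bound collagenase, was at 37.9, 38.9 and 34.1 CPM in WT and at 32.2, 33.3 and 34.4 CPM in Nr2e3-/- tumors, with a log2 fold change of -0.15 (SE 0.10). It was singled out after its values were seen, for its narrow spread. Mmp15, the membrane-type MMP with the most counts, was at 62.2, 55.0 and 60.0 CPM in WT and at 56.9, 29.5 and 35.2 CPM in Nr2e3-/- tumors, with -0.55 (SE 0.23, unadjusted p = 0.0516 in the edgeR fit). Mmp15 was the only one of the 9 MMPs with an adjusted p under 0.05 without Nr2e3-/- replicate 1, at 0.00649. Mmp19, the most counted secreted MMP, was at 64.1, 68.8 and 54.8 CPM in WT and at 92.0, 69.4 and 71.6 CPM in Nr2e3-/- tumors. Its groups did not overlap, though the nearest values of 68.8 and 69.4 CPM lay closer than the WT libraries did to each other, and the log2 fold change was 0.31 (SE 0.15). Mmp19 shares 789 exon bases with Tmem198b on the opposite strand. Mmp2, the gelatinase of stellate cells, was at 1.25 to 3.02 CPM in WT and 0.965 to 2.71 CPM in Nr2e3-/- tumors. Mmp12, the macrophage elastase, and Mmp13, a collagenase, ranged from 2.08 to 6.50 and from 0.173 to 2.03 CPM within WT alone. Mmp23 had a log2 fold change of -0.63 (SE 0.36).

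The 3 expressed TIMPs went separate ways. Timp1, the inhibitor that is induced in injured liver, was at 0.269, 0.203 and 0.243 CPM in WT and at 0.463, 5.75 and 1.57 CPM in Nr2e3-/- tumors. In raw counts these were 7, 6 and 7 in WT and 7, 155 and 29 in Nr2e3-/- libraries, so that replicate 1, at the lowest depth, was hardly apart from WT. The log2 fold change was 3.47 (SE 0.88, adjusted p = 0.120). It was 2.11 without replicate 2 (adjusted p = 0.17) and 3.95 without replicate 1 (adjusted p = 0.00873). Timp1 was among the genes described only through its Nr2e3-/- counts, so these values are a description. Timp3, the matrix-bound inhibitor with the highest level, was at 78.9, 77.4 and 78.9 CPM in WT and at 93.0, 78.1 and 85.0 CPM in Nr2e3-/- tumors, with 0.12 (SE 0.10). It shares 1733 exon bases with Syn3 on the opposite strand, which stood at 2 to 3.65 CPM. Timp2 was at 17.1, 16.8 and 19.3 CPM in WT and at 17.5, 11.9 and 9.36 CPM in Nr2e3-/- tumors, with -0.46 (SE 0.23), and had an adjusted p of 0.0193 without replicate 1. Timp4 had 1 count in all libraries together. Timp1 (chrX:20870166-20874735, plus strand) had the highest fold change, and the 250 bases before its start (chrX:20869916-20870165, plus strand, RefSeq on GRCm38.p6) are shown with a CCAAT box and a GC box in capitals, both read on the opposite strand.
Before Timp1: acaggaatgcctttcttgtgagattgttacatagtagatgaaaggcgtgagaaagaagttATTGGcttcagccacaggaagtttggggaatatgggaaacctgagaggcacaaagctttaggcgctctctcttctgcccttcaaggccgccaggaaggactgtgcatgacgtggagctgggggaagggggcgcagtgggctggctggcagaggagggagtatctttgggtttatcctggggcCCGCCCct
The letters of an AP-1 site (TGANTCA) are not in these 250 bases and are in 6.75% of such stretches, and a TATA box is not matched either.

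**Figure D4:**
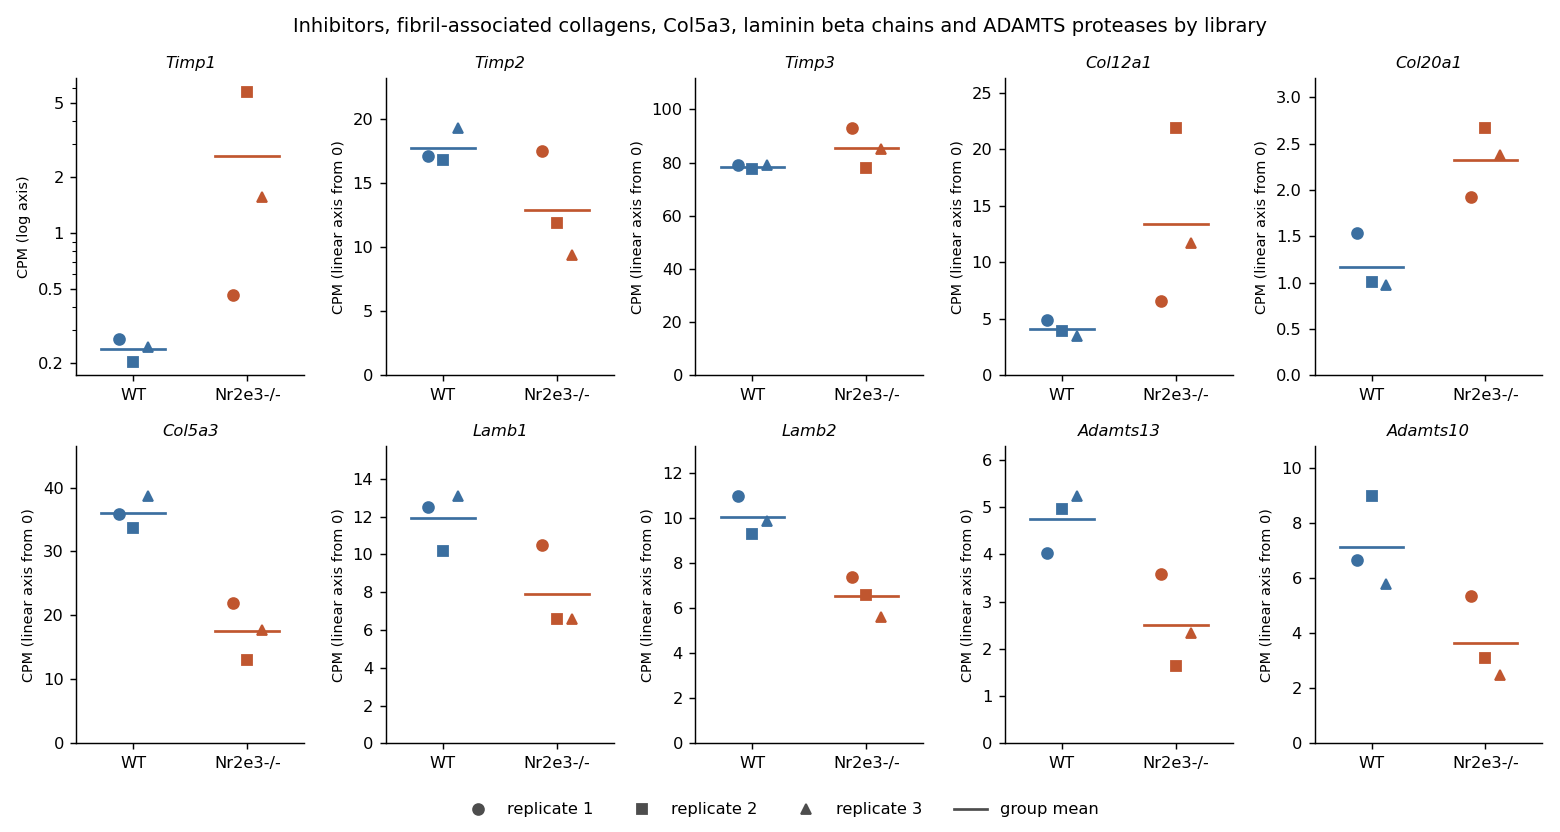
Levels in CPM of the 3 TIMPs, 2 fibril-associated collagens, Col5a3, 2 laminin beta chains and 2 ADAMTS proteases in each library, with lines for group means; the Timp1 axis is logarithmic and the others are linear from 0. The Nr2e3-/- libraries of Col5a3 and Lamb2 lie below all WT libraries, and Timp1 spans 0.463 to 5.75 CPM among them.

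ADAMTS proteases with an unadjusted p under 0.05 were all lower in Nr2e3-/- tumors. Adamts13, which cleaves von Willebrand factor and is made by stellate cells, was at 4.03, 4.97 and 5.24 CPM in WT and at 3.58, 1.63 and 2.33 CPM in Nr2e3-/- tumors. The groups did not overlap, with a log2 fold change of -0.94 (SE 0.30, adjusted p = 0.158). Adamts10, a protease of fibrillin microfibrils, was at 6.68, 9 and 5.79 CPM in WT and at 5.36, 3.12 and 2.49 CPM in Nr2e3-/- tumors, with -0.98 (SE 0.32, adjusted p = 0.158). In both genes replicate 1 was the Nr2e3-/- library nearest to WT, and without it Adamts10 had an adjusted p of 0.0155 and Adamts13 of 0.0164. Adamts7 was at 4.11, 6.83 and 7.35 CPM in WT and at 4.37, 3.01 and 2.97 CPM in Nr2e3-/- tumors, with -0.83 (SE 0.28), and -1.02 with an adjusted p of 0.0470 without replicate 1. It shares 122 exon bases with Tbc1d2b on the opposite strand. Adamts14, which removes the N-propeptide of procollagens, was at 2.23, 3.99 and 3.05 CPM in WT and at 1.79, 1.52 and 2.16 CPM in Nr2e3-/- tumors, with -0.77 (SE 0.28).

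The other procollagen-trimming enzymes differed in sign. Adamts2, the most counted of them, was at 4.33 to 5.38 CPM in WT and at 6.95, 3.71 and 2.27 CPM in Nr2e3-/- tumors, with a log2 fold change of -0.19 that turned to 0.12 without Nr2e3-/- replicate 3. Adamts3 was near the count minimum, with 0.347 to 0.576 CPM in WT and 0.594 to 0.596 CPM in Nr2e3-/- tumors, so that the nearest values of the groups, 0.576 and 0.594 CPM, were almost the same. Proteases that cut aggrecan and versican scattered widely. Adamts1, the most counted of these, was at 25.1, 25.9 and 20.7 CPM in WT and at 13.8, 30.2 and 13 CPM in Nr2e3-/- tumors, with -0.32 (SE 0.32). Adamts4 and Adamts9 were named after their values were seen, because Nr2e3-/- replicate 2 alone was high in both, at 4.12 CPM for Adamts4 and 6.53 CPM for Adamts9. The other Nr2e3-/- libraries had 0.596 and 0.757 CPM of Adamts4 and 1.92 and 1.68 CPM of Adamts9, close to WT at 0.440 to 0.730 and 1.52 to 2.80 CPM. This library also had the highest summed markers of macrophages (640 CPM, against 248 to 365 CPM in the others), bile duct (439 CPM, against 68.8 to 196) and neutrophils (27.4 CPM, against 3.31 to 17.2). The part of these cells in the values of Timp1, Col12a1, Adamts4 and Adamts9 was not tested.

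Across the 63 genes, Nr2e3-/- replicate 1 had 34.9% below the WT range, replicate 2 had 54.0% and replicate 3 had 65.1%. The same shares over all genes tested were 33.1%, 38.2% and 39.6%. Among collagens these shares were 26.9%, 57.7% and 69.2%, and among laminins 45.5%, 63.6% and 81.8%. Replicate 3 thus had the most matrix genes below WT and replicate 1 was close to the share over all genes. Without replicate 1, edgeR gave an adjusted p under 0.05 to 4 collagens in the higher direction (all genes 12.2%) and 10 in the lower (all genes 9.65%), to 4 laminins, 4 ADAMTS proteases and 1 MMP in the lower, and to 1 TIMP in each.

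**Figure D5:**
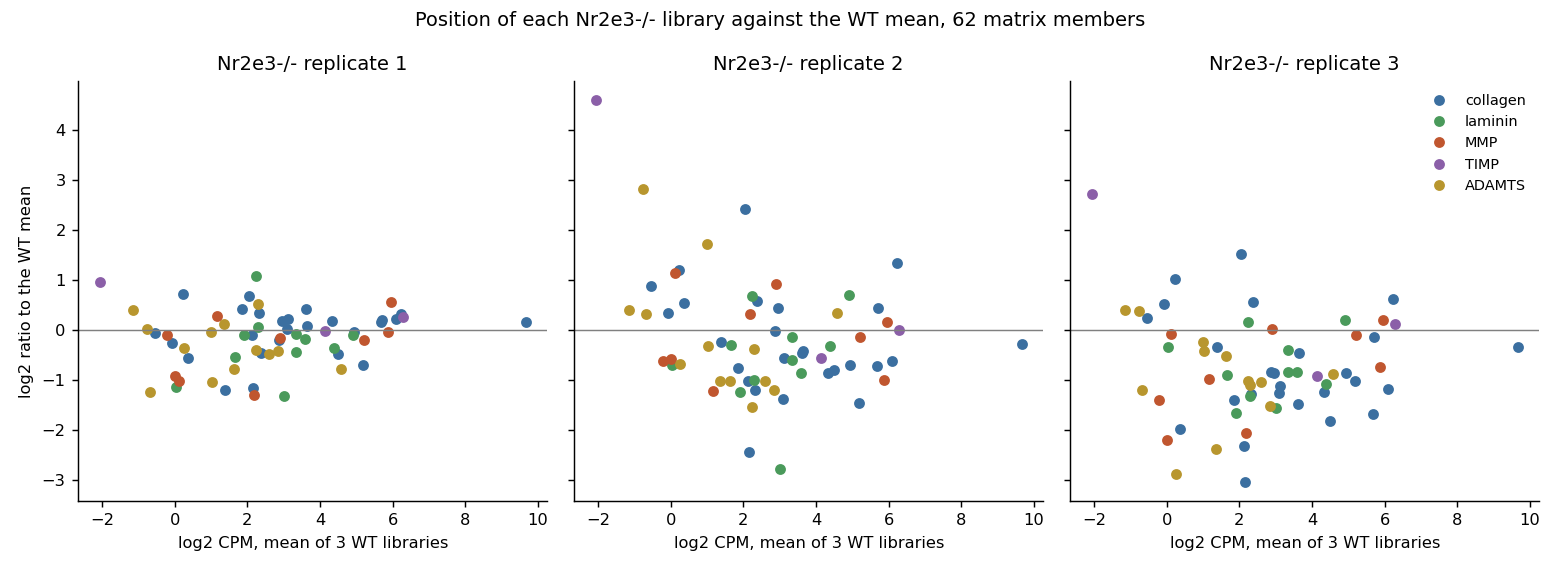
Log2 ratio of each Nr2e3-/- library to the WT mean (vertical axis) against the log2 mean CPM of the 3 WT libraries (horizontal axis), with 1 point for each of 62 matrix genes and colors for families. Points of replicate 1 scatter on both sides of 0, and in replicate 3 most points lie below 0.

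Genes that act on these proteins were counted from lists written by hand. Of 17 tested genes of collagen processing and crosslinking, none had an adjusted p under 0.05 in edgeR, and at an unadjusted p under 0.05 there were 3 higher (all genes 11.8%) and 1 lower (all genes 9.72%), with a median log2 fold change of 0.22. P4ha2, a collagen prolyl hydroxylase subunit, was at 6.95, 6.66 and 5.38 CPM in WT and at 8.74, 10.2 and 8.98 CPM in Nr2e3-/- tumors. Serpinh1, the collagen chaperone HSP47, had a log2 fold change of 0.65 (SE 0.25) and P4hb, protein disulfide isomerase, 0.31 (SE 0.13), whereas Crtap, which serves collagen prolyl 3-hydroxylation, had -0.48 (SE 0.18). Of 21 matrix receptors, none had an adjusted p under 0.05, 2 were higher and 2 lower at an unadjusted p under 0.05 (all genes 11.8% and 9.72%), and the median was -0.13. Sdc4, the heparan sulfate proteoglycan syndecan 4, was at 355, 386 and 324 CPM in WT and at 499, 723 and 662 CPM in Nr2e3-/- tumors, with 0.82 (SE 0.16, adjusted p = 0.0936). Dag1, the dystroglycan gene whose product binds laminins, was at 94.0, 92.4 and 103 CPM in WT and at 81.7, 63.3 and 58.5 CPM in Nr2e3-/- tumors, with -0.51 (SE 0.14, adjusted p = 0.133).

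Of 18 other basement membrane and matrix proteins, 1 was higher and 3 lower at an unadjusted p under 0.05 (all genes 11.8% and 9.72%) and none had an adjusted p under 0.05, with a median of -0.34. The higher one was Vtn, the plasma adhesion protein vitronectin, at 1710, 1660 and 1870 CPM in WT and 1950, 2500 and 2180 CPM in Nr2e3-/- tumors (0.34, SE 0.14). The lower ones were Hspg2, the gene of perlecan, at -0.46 (SE 0.17) and Nid2, a nidogen that links laminin to collagen IV, at -0.45 (SE 0.19), as well as elastin (Eln) at -0.84 (SE 0.31). The summed level of this list was 4150 to 4340 CPM in WT and 4480 to 6140 CPM in Nr2e3-/- tumors, most of it from Vtn and fibronectin (Fn1). Nid2 was at 9.29 to 9.85 CPM in WT and 5.30 to 8.39 CPM in Nr2e3-/- tumors, without overlap. Of 17 genes of the TGF-beta axis, the main inducer of matrix genes in liver, none had an adjusted p under 0.05, and at an unadjusted p under 0.05 there were 1 higher and 3 lower (all genes 11.8% and 9.72%), with a median of -0.06. Tgfb2 had -1.45 (SE 0.47), Smad7, an inhibitor of this signal, -0.61 (SE 0.21) and Tgfbr2, a receptor, 0.52 (SE 0.18). Of 11 other protease regulators, 2 were higher and 1 lower at an unadjusted p under 0.05 (all genes 11.8% and 9.72%) and none passed after adjustment, with a median of 0.17. A2m, a broad protease inhibitor of plasma, was at 0.461, 0.0677 and 0.0347 CPM in WT and at 0.794, 2.64 and 3.19 CPM in Nr2e3-/- tumors, where WT replicates 2 and 3 held fewer than 3 counts. Plaur, the urokinase receptor, had 2.04 (SE 0.74), and Plau, urokinase itself, had -0.81 (SE 0.34).

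Of the remaining marker lists, myofibroblast genes had 1 of 7 tested higher at an unadjusted p under 0.05 and endothelial genes had 1 of 11 higher and 1 lower, where all genes had 11.8% higher and 9.72% lower. Bile duct genes had 2 of 6 higher, macrophage genes none of 7, neutrophil genes 2 of 4 higher, lymphocyte genes 4 of 7 lower and hepatocyte genes 2 of 7 higher. The single tested muscle gene did not pass, and no pancreas gene reached the test. None of the genes in these lists had an adjusted p under 0.05.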

How the data were processed

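Tumor RNA of 6 mice was sequenced as 1 library each (TruSeq, single-end). Per the labels and the methods, the authors aligned reads to mm10 (GRCm38) with TopHat and counted them per gene with featureCounts, and deposited raw counts, the values used here. The deposited normalized table and the authors' comparison table (fold changes and p-values) were not used.

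Groups follow the genotype given for each sample. Counts were filtered with filterByExpr (minimum count 10, minimum total 15), normalized by TMM and tested with edgeR 4.0.16 (quasi-likelihood F test, two-sided, all 6 libraries) in R 4.3.3, with Benjamini-Hochberg adjustment over all genes tested. Standard errors were derived from the F statistic. CPM are TMM-normalized counts per 1000000. Levels per kilobase used joined exons of the GENCODE annotation of GRCm38. Alternatives were RLE and upper quartile normalization, DESeq2 1.42.0, limma-voom (limma 3.58.1) with sample quality weights, every gene with 1 count, 10 counts in every library, a mean of 50 counts, the replicate number as a block, and each library left out. The pipeline was tested on simulated data. p-values measure the spread between these mice. With 3 against 3, an exact two-sided permutation test of a single value cannot go below 0.1. Limits from a count of 0 use total counts without TMM factors and cover counting error only. Precision is set by 15376261 to 28690279 counts per library.

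Genes were named where their unadjusted p was under 0.05, where they had the most counts of their class, or where they were TIMPs, laminins or chains of collagens I, III, IV and VI; any others were named after their values were seen. From the other lists, genes with the smallest p-values were named, and any others of these lists were named after their values were seen. The genes, lists and classes were chosen with earlier results of these data known, and lists were written by hand. 43 of 63 genes matched the RefSeq table of gene starts. In all, 19 of 63 genes share exon bases with another annotated gene. The values of 1 gene, which entered the counts and medians, are not reported here.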

Additional observations from a re-analysis of the deposited data

How the results depend on the processing

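Of 42 genes followed through the alternatives, 39 kept the sign of their log2 fold change in all alternatives that tested them, and 3 turned without Nr2e3-/- replicate 3, with ranges over the left-out libraries of -0.68 to 0.12 for Adamts2, -0.86 to 0.03 for Col1a1 and -1.14 to 0.12 for Col8a1. Col6a6 and the genes named after their values were seen, such as Adamts4 and Adamts9, were not among the 42. Calls at an adjusted p under 0.05 numbered 0, against 7 with DESeq2 and 21 with limma-voom, and 0 to 25 when a library was left out, the 25 without Nr2e3-/- replicate 1 and 0 without any other. All other alternatives gave 0. At an unadjusted p under 0.05, the 5 higher genes became 3 among the 48 genes with a mean of at least 50 counts. With a library left out they became 4 (without each WT library, 6.67% to 8.44% of all genes) to 7 (without Nr2e3-/- replicate 1, 19.9% of all genes). The 10 lower genes became 29 with limma-voom (17.9% of all genes). With a library left out they became 5 (without WT replicate 2, 6.04% of all genes) to 29 (without Nr2e3-/- replicate 1, 17.8% of all genes). The 6 genes with groups apart and higher became 3 with at least 10 counts in every library (13.8% of all genes), 3 at a mean of at least 50 counts, and 6 to 11 with a library left out, where 11 was without Nr2e3-/- replicate 1 (28% of all genes). The 9 that were apart and lower became 14 with upper quartile normalization (17.6% of all genes) and 11 to 32 with a library left out, where 32 was without Nr2e3-/- replicate 1 (26.9% of all genes). Groups with fewer libraries are more easily apart, so counts with a library left out can rise for that reason alone. With every library kept, 13.9% of all genes were apart and higher and 12.9% apart and lower. The collagen median of -0.36 was -0.76 with limma-voom and -0.60 to -0.12 with a library left out. The MMP median of -0.52 was -0.15 at a mean of at least 50 counts and -0.44 to -0.11 with a library left out. The ADAMTS median of -0.54 was -0.67 with at least 10 counts in every library, -0.71 with limma-voom, -0.64 with upper quartile normalization, -0.78 at a mean of at least 50 counts, and -0.68 to -0.26 with a library left out. The cause was not tested.

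Same-numbered WT and Nr2e3-/- libraries had correlations of deviations from their group means of -0.0766, 0.221 and 0.0234, so the numbers were not taken as pairs, and with the replicate number as a block 0 of the 63 genes had an adjusted p under 0.05. At 15376261 counts, the depth of Nr2e3-/- replicate 1, a count of 0 allows 0.195 CPM without the TMM factor, which limits low genes such as Timp1.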
